A study of Mus musculus with 2 samples.

Results

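Rsad2, Cmpk2, Mx1, Mx2, Isg15 and Isg20 are 6 interferon-stimulated genes whose products act directly on viruses or on infected cells. They were taken by gene symbol and are 6 of 55536 annotated genes in the gene tables. The RNA came from bone-marrow-derived macrophages, cells grown from mouse marrow precursors, of strain C57BL/6J. The cells had been exposed for 90 min to lipid A at 100 ng/ml, the membrane anchor of bacterial lipopolysaccharide and an agonist of TLR4. RNA of the nucleoplasm, the soluble part of the nucleus, was depleted of ribosomal RNA and sequenced. Both libraries belong to 1 group, as biological replicates 1 and 2 of 1 donor entry, and their spread may therefore be technical. Age and sex were not recorded. No unstimulated, cytoplasmic or interferon-blocked library was analysed here, so the values are levels in stimulated cells and say nothing of induction.

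In macrophages, TLR4 signals through the adaptor TRIF to the kinase TBK1 and the factor IRF3, which switches on the gene for interferon beta. Secreted interferon beta then acts through its receptor, JAK1, TYK2, STAT2 and IRF9 on promoters that carry an interferon-stimulated response element. Rsad2 encodes viperin, an enzyme that converts CTP into a nucleotide that stops viral RNA synthesis, and its neighbour Cmpk2 encodes a mitochondrial nucleotide kinase that can supply CTP. Mx1 and Mx2 encode dynamin-like GTPases that block viral nucleocapsids. Isg15 encodes a ubiquitin-like protein that is attached to other proteins, and Isg20 encodes an exonuclease that degrades RNA. C57BL/6 mice, like most laboratory strains, carry an Mx1 allele that lacks internal exons and an Mx2 allele with a disrupted reading frame. The reference genome is that of C57BL/6J, so its annotation describes these defective alleles.

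The 6 genes lie at 4 loci, given here in mm10 with the GENCODE M21 annotation. Rsad2 (ENSMUSG00000020641.16) spans chr12:26442746-26456452 on the minus strand. Cmpk2 (ENSMUSG00000020638.8) spans chr12:26469204-26479837 on the plus strand, so both genes are read away from each other, with 12751 bases between their starts. Mx1 (ENSMUSG00000000386.15) spans chr16:97447035-97462907 on the minus strand. Mx2 (ENSMUSG00000023341.15) spans chr16:97535308-97560900 on the plus strand, with 72400 bases between the starts, and is classed as a polymorphic pseudogene. Isg15 (ENSMUSG00000035692.6) spans chr4:156199424-156200818 on the minus strand and Isg20 (ENSMUSG00000039236.18) chr7:78913424-78920396 on the plus strand.

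The promoter bases of 3 members show how the divergent pair and the gene with the most element-like letters differ. Sequences are from RefSeq (GRCm38.p6, the assembly of mm10), end 1 base before the RefSeq start and are written in the direction of transcription. Capitals mark matches to GAAANNGAA, which holds a pair of the GAAA-type blocks of the response element, on either strand.
Rsad2, chr12:26456453-26456602, minus strand: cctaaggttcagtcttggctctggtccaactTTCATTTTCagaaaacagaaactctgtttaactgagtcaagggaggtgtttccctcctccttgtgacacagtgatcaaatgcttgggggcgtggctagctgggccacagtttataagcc
Cmpk2, chr12:26469065-26469214, plus strand: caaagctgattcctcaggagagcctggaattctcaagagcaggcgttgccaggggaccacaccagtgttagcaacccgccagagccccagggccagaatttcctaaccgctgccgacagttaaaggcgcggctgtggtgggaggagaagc
Isg15, chr4:156200819-156200968, minus strand: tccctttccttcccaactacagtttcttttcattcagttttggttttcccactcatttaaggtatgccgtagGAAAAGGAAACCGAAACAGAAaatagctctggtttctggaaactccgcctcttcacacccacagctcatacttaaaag
The search covered 250 bases before to 50 bases after each start. Isg15 had 3 overlapping matches between 78 and 58 bases before its start. Rsad2 had 1, read on the other strand as TTCATTTTC, between 119 and 111 bases before its start. Cmpk2 had none in this window, nor had any of the 3 RefSeq starts of Isg20. Of all 32851 windows in the table, 8.56% held GAAANNGAA. The kappa-B consensus, present in 4.51% of windows, was in none of these promoters. A match is a run of letters and was not tested as a binding site, and Mx1 and Mx2 were not in the promoter table.

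Exon junctions of Mx1 and Mx2 set the transcripts printed here apart from each other. They do not all belong to a single transcript. The junction of Mx1-205 also occurs in Mx1-203 and Mx1-208, and that of Mx2-202 also occurs in Mx2-204. Each sequence joins the last 20 bases of 1 exon, in lower case, to the first 20 of the next, in capitals, and is read from mm10.
Mx1-202, exons 6 and 7: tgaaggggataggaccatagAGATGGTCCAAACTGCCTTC
Mx1-205, exons 8 and 9: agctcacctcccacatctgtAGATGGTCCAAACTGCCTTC
Mx1-201, exons 8 and 9: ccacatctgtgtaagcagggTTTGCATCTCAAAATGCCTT
Mx2-201, exons 10 and 11: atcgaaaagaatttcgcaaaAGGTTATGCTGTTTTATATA
Mx2-202, exons 10 and 11: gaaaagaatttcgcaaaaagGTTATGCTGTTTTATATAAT
The right-hand sides of Mx1-202 and Mx1-205 are the same exon, reached from different exons, because Mx1-202 skips exons of 199 and 79 bases that Mx1-205 keeps. Mx1-201 extends the exon of 79 bases to 89 and enters an exon found in neither. Mx2-201 and Mx2-202 are annotated with exon ends a few bases apart, and Mx2-202 is 1 base longer across the junction. As annotated, the Mx2-201 intron would begin with the letters aag that end exon 10 of Mx2-202. Whether such an intron is spliced was not tested. That base separates the protein-coding from the pseudogene annotation, apart from 2 further bases at the start and 1 at the end of Mx2-202.

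Replicate 1 had 22669533 estimated counts and was made from 1 µg of RNA, and replicate 2 had 14939143 and was made from 500 ng. Genes of the mitochondrial genome took 4.92% and 12.1% of counts. TPM, a relative abundance of transcripts, corrects for length and is used for levels, and 73.9% and 57.0% of it went to features with an effective length under 200. Over the 8572 protein-coding genes with at least 1 TPM in each library the median was 6.62 TPM in replicate 1 and 8.68 TPM in replicate 2. All 10 macrophage markers reached 1 TPM in both libraries, with summed levels of 1744 and 2253 TPM, and Lyz2, a lysozyme gene, was the highest. Markers of T or NK cells summed to 0.02 and 0.04 TPM with 5 of 6 at 0, and B or plasma cell markers to 0.23 and 0.13 TPM. Neutrophil markers summed to 3.0 and 3.55 TPM with 3 of 7, Ly6g, Elane and Camp, at 0. Dendritic cell markers summed to 2.81 and 4.36 TPM, erythroid or megakaryocyte markers to 0.38 and 1.75 TPM, and stromal or endothelial markers to 0.32 and 0.75 TPM. All these levels are from a first quantification. In a second, described below, the T cell marker Cd3d stood at 3.01 and 13.1 TPM and the endothelial marker Pecam1 at 3.53 and 13.4 TPM. Cd3e, the highest of the other T or NK markers there, stood at 0.043 and 0.017 TPM.

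Both genes of the viperin locus ranked high among the protein-coding genes with at least 1 TPM in each library. Rsad2 stood at 821 TPM in replicate 1 and 494 TPM in replicate 2, a mean of 657 ± 231 TPM (SD, n = 2). It exceeded the median protein-coding gene 124-fold and 56.9-fold, at percentiles 99.8 and 99.6 of the 8572 genes. Cmpk2, across the divergent start region, stood at 178 TPM in replicate 1 and 88.7 TPM in replicate 2 (133 ± 63.3 TPM, SD, n = 2), at percentiles 98.3 and 94.8. Rsad2 was higher than Cmpk2 4.61-fold in replicate 1 and 5.57-fold in replicate 2, and their ranges did not overlap.

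Mx1 and Mx2 lay at nearly the same level. Mx1 stood at 369 TPM in replicate 1 and 209 TPM in replicate 2 (289 ± 113 TPM, SD, n = 2), and Mx2 at 325 and 200 TPM (263 ± 88.8 TPM, SD, n = 2). Mx1 over Mx2 was 1.13 and 1.04, and the ranges of both genes overlapped. Both were at percentiles from 98.1 to 99.4. They are paralogs, and the division of reads between them is uncertain, as described with their transcripts.

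The ISG effectors were lower than the genes of the other loci. Isg15 stood at 75.1 TPM in replicate 1 and 38.3 TPM in replicate 2 (56.7 ± 26.0 TPM, SD, n = 2), at percentiles 95.1 and 86.0. Isg20 stood at 12.8 and 7.31 TPM (10.03 ± 3.85 TPM, SD, n = 2), at percentiles 68.0 and 45.1, above the median gene in replicate 1 and below it in replicate 2. Its mean percentile of 56.6 fell to 26.1 against genes at 5 TPM or more and rose to 67.5 against genes at 0.1 TPM or more. It rested on 300 and 85 estimated counts, the fewest of the 6, against 103488 and 31053 for Rsad2.

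The order of TPM was Rsad2, Mx1, Mx2, Cmpk2, Isg15 and Isg20 in both libraries. Between neighbours in this order, the ranges over the libraries overlapped only for Mx1 and Mx2. The second quantification, made by the authors directly from reads, gave the same order in each library. There Rsad2 stood at 970 and 530 TPM, Mx1 at 781 and 333 TPM, Mx2 at 366 and 197 TPM and Cmpk2 at 285 and 98.5 TPM. Isg15 stood at 58.5 and 33.9 TPM and Isg20 at 11.6 and 5.96 TPM. On that scale the ranges of Rsad2 and Mx1, of Mx1 and Mx2, and of Mx2 and Cmpk2 overlapped. Mx1 over Mx2 was 2.13 and 1.69 there. Of the 8572 protein-coding genes, 3.28% reached 100 TPM in both libraries, and Rsad2, Mx1 and Mx2 passed that level, although Mx2 is not of the protein-coding class.

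**Figure D1:**
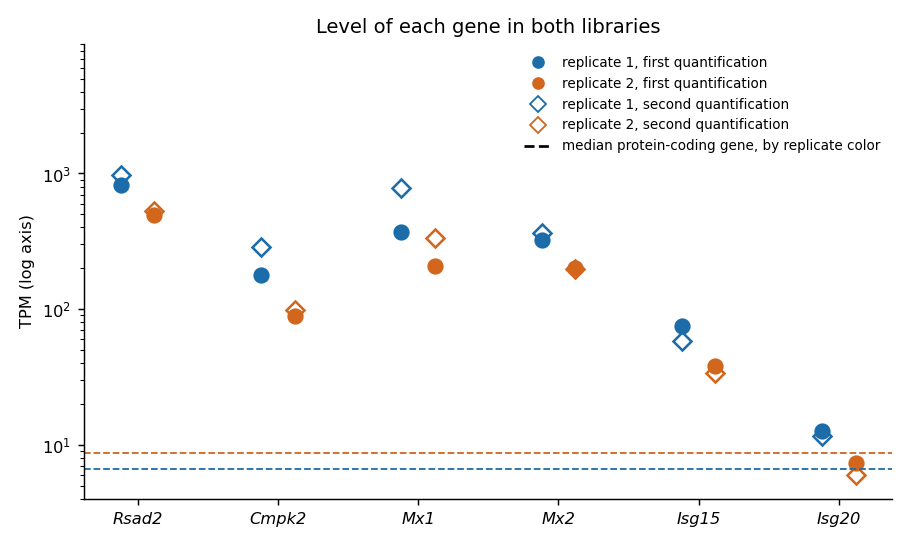
Level of each gene in TPM (vertical log axis) in replicate 1 (blue) and replicate 2 (orange), from the first quantification (filled circles) and the second (open diamonds), with dashed lines at the median protein-coding gene of each library. Every gene is lower in replicate 2 in both quantifications, and Isg20 alone lies near the median lines, at 12.8 and 7.31 TPM in the first.

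Genes whose levels lay nearest to each member were found over 4 values, log2(TPM + 0.1) in both libraries and both quantifications, among 5951 protein-coding genes. Nearest to Rsad2 were the chemokine gene Ccl5 (690 and 427 TPM, distance 0.66) and Tnip3, which encodes an A20-binding protein (distance 0.87). Nearest to Mx2 were Irf1, an interferon-responsive transcription factor gene (305 and 229 TPM, distance 0.35), and Ifi204, a DNA-sensor family gene (distance 0.58). Cmpk2 lay nearest to the proteasome activator gene Psme2 and the hexokinase gene Hk3, and Mx1 to the galectin gene Lgals3 and the RNA sensor gene Ifih1. Isg15 lay nearest to Arid5a and March5, and Isg20 to Sap30 (14.9 and 7.85 TPM, distance 0.25) and Rtraf. These are likenesses of 4 values from 2 libraries.

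All 6 genes were lower in replicate 2 relative to other genes. Counts were scaled by the trimmed mean of M-values (TMM), and ratios are replicate 2 over replicate 1, with 95% intervals that cover counting error only. With 1 group of 2 libraries no test was possible. The ratio of Rsad2 was -1.17 on the log2 scale (-1.19 to -1.15), which is 2.25-fold lower, and that of Cmpk2 -1.32 (-1.36 to -1.27), 2.49-fold lower. Mx1 was 2.42-fold lower, with a log2 ratio of -1.28 (-1.32 to -1.24), and Mx2 2.32-fold lower, at -1.21 (-1.26 to -1.17). Isg15 was 2.60-fold lower, at -1.38 (-1.56 to -1.22), and Isg20 2.35-fold lower, at -1.23 (-1.62 to -0.90). Their levels spanned a ratio of Rsad2 to Isg20 of 64.4 in replicate 1 and 67.5 in replicate 2. The 6 log2 ratios lay within 0.21 of each other in the first quantification. In the second they spread more widely, from -1.59 (Cmpk2) to -1.26 (Isg15).

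The median log2 ratio of the 6 genes was -1.26, against -0.002 over 13515 genes tested, of which 6780 had a negative ratio. All 6 were lower in replicate 2 by more than 1.5-fold, as were 11.1% of genes tested, and all 6 by more than 2-fold, as were 3.37%. These shares of all genes tested are also the background of the list counts below. From 1.05% (Isg15) to 2.02% (Rsad2) of genes tested had a lower ratio than a given member. The common dispersion over all genes gave a biological coefficient of variation of 0.210, equal to an SD of 0.43 for a log2 ratio, and each member differed by more than that SD. In the second quantification the 6 genes were 2.40-fold (Isg15) to 3.0-fold (Cmpk2) lower in replicate 2, and 12.1% of 22222 genes were lower by more than 1.5-fold. Replicate 2 also had less starting RNA, fewer counts in the first quantification and a higher mitochondrial share, as given above. Counts of the second quantification totalled 30881427 in replicate 1 and 27674626 in replicate 2. The part of starting RNA, depth and mitochondrial share in the difference was not tested. On the TMM scale of these ratios, the 10 macrophage markers had a median of -0.18, with 7 of 10 negative.

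**Figure D2:**
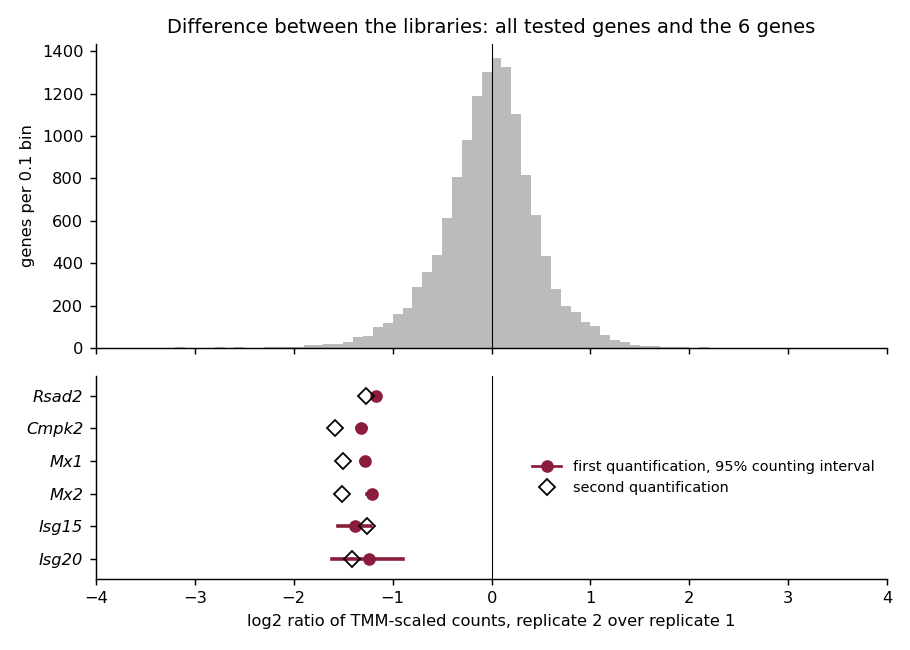
Upper panel, number of genes per bin of the log2 ratio of TMM-scaled counts, replicate 2 over replicate 1, for 13515 genes; lower panel, the ratio of each member in the first quantification (circles, bars for the 95% counting interval) and the second (diamonds). The 6 genes lie between -1.38 and -1.17 in the first quantification, on the lower flank of the distribution, and all below -1 in the second.

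Genes upstream of the members mostly differed by less than 1.5-fold between the libraries. Of 13 genes of interferon induction and signalling, the median log2 ratio was -0.22, or -0.41 in the second quantification. Against 11.1% of all genes tested, 2 of the 13 were lower in replicate 2 by more than 1.5-fold. These were Ifnb1, the gene of interferon beta (23.6 and 9.47 TPM, log2 ratio -1.71), and Irf7, the factor that amplifies interferon transcription (91.8 and 48.0 TPM, -1.44). The kinase gene Ikbke stood at 359 and 425 TPM (-0.13), Stat2 at 119 and 119 TPM (-0.26), and the receptor genes Ifnar1 (85.01 and 118 TPM, 0.003) and Ifnar2 (49.7 and 75.2 TPM, 0.17) were close to 0. Ticam1, the gene of TRIF, was the least abundant of the list at 4.98 and 6.40 TPM (-0.08).

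Of the 5 genes for attaching and removing ISG15, all had negative ratios, with a median of -0.76, and 3 were lower by more than 1.5-fold. Uba7, the activating enzyme, stood at 49.3 and 45.3 TPM (log2 ratio -0.88), and Usp18, which removes ISG15 from its targets, at 46.4 and 32.9 TPM (-0.82). The ligase gene Trim25 stood at 99.2 and 78.4 TPM (-0.76). Herc6, the main mouse ISG15 ligase, was the most abundant at 174 and 134 TPM (-0.30), and the conjugating enzyme gene Ube2l6 the least, at 15.7 and 19.0 TPM (-0.07). Isg15 itself was at -1.38, lower than each of these enzymes.

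Of 25 other interferon-stimulated genes, all had negative ratios, with a median of -0.81, 16 were lower by more than 1.5-fold and 5 by more than 2-fold. Over all genes tested, 6780 of 13515 had negative ratios, 11.1% were lower by more than 1.5-fold and 3.37% by more than 2-fold. The lowest ratios were those of the chemokine gene Cxcl10 (420 and 183 TPM, log2 ratio -1.61) and of Ifit2, which encodes an RNA-binding antiviral protein (268 and 136 TPM, -1.42). The most abundant were Parp14 (462 and 468 TPM, -0.39), Oasl2 (422 and 445 TPM, -0.28) and Ifih1 (453 and 405 TPM, -0.57). Ifit3b was the least abundant (5.74 and 4.36 TPM, -0.82) and Trim30a had the highest ratio (127 and 143 TPM, -0.15). Together with the ISG15 enzymes, 26 of 30 genes had a ratio above that of Rsad2, the least shifted member, and 2, Cxcl10 and Ifit2, lay below every member. The members and lists were chosen with such values known, so the contrast is a description.

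Among 10 inflammatory genes the median was -0.25, and -0.44 in the second quantification. Of these, 8 had negative ratios, 3 were lower in replicate 2 by more than 1.5-fold and 1 by more than 2-fold. Tnfaip3, which restrains NF-kB, stood at 529 and 681 TPM (log2 ratio -0.33), Icam1 at 422 and 600 TPM (0.06), Ccl3 at 461 and 402 TPM (-0.62) and Cxcl2 at 109 and 156 TPM (0.13). Nfkbia (439 and 304 TPM, -0.97) and Il6 (11.5 and 7.44 TPM, -1.03) had the lowest ratios of that list.

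Genes whose products work with viperin or on its substrates were far less abundant than Rsad2. Of 6 partner genes, none was lower by more than 1.5-fold, and the median was -0.07, or -0.21 under TPM centring and -0.24 in the second quantification. Among them the kinase gene Irak1 stood at 13.9 and 13.5 TPM (log2 ratio -0.21), Traf6 at 11.1 and 13.9 TPM (0.02) and Vapa, a lipid-droplet and endoplasmic reticulum partner, at 6.21 and 8.68 TPM (-0.02). The isoprenoid enzyme gene Fdps stood at 5.18 and 5.26 TPM (-0.58), Hadhb at 4.74 and 5.92 TPM (0.04) and Ciao1, an iron-sulfur cluster assembly gene, at 2.99 and 2.13 TPM (-0.11). In the second quantification Ciao1 stood higher, at 22.0 and 18.9 TPM. Of 12 pyrimidine nucleotide genes tested, the median was -0.13, with a sign that turned under TPM centring, 0.21, and 1 gene each was lower and higher by more than 1.5-fold. Cmpk1, the cytosolic relative of Cmpk2, stood at 6.04 and 9.90 TPM (-0.04), and the CTP synthase gene Ctps2 at 8.98 and 7.48 TPM (-0.08). The thymidine kinase gene Tk1 stood at 8.41 and 7.95 TPM (-0.42), the deoxycytidine kinase gene Dck at 5.93 and 3.40 TPM (-0.96), Nme2 at 4.19 and 3.67 TPM (-0.43) and Umps at 0.37 and 0.85 TPM (0.64). Dctd had 0 and 3 counts and was not tested.

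Of 6 dynamin relatives of Mx1 and Mx2 tested, the median was 0.17, or -0.019 in the second quantification. Dnm2 stood at 25.1 and 34.7 TPM (log2 ratio -0.05), the mitochondrial fission gene Dnm1l at 17.6 and 31.0 TPM (0.40) and the fusion genes Opa1 at 10.01 and 14.3 TPM (0.05) and Mfn1 at 5.85 and 5.86 TPM (0.04). Dnm3 was the lowest in the first quantification, at 0.15 and 0.37 TPM (0.81, from 21 and 26 counts). In the second it stood at 4.19 and 7.06 TPM. Of 7 exonuclease genes related to Isg20 in function, the median was -0.11, with the opposite sign under TPM centring, 0.080, and -0.34 in the second quantification.

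Only the DNA exonuclease gene Trex1 (44.4 and 25.7 TPM, log2 ratio -1.19) was lower by more than 1.5-fold in that exonuclease list. Rexo4 stood at 28.8 and 35.0 TPM (-0.11), Xrn2 at 19.8 and 27.2 TPM (0.04), Isg20l2 at 5.24 and 7.32 TPM (0.04) and Eri1 at 4.72 and 9.31 TPM (0.43). Of 11 ubiquitin and ubiquitin-like genes, the comparators of Isg15, the median was -0.20, or -0.37 in the second quantification. Rps27a stood at 34.5 and 29.1 TPM (-0.66). Fau (46.6 and 60.7 TPM, -0.20) was the most abundant, Urm1 the least (4.03 and 4.44 TPM, -0.44), and Sumo3 had the highest ratio (3.91 and 7.44 TPM, 0.45). Isg15, at 75.1 TPM, was above each of these 11 genes in replicate 1, and Fau was above it in replicate 2.

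**Figure D3:**
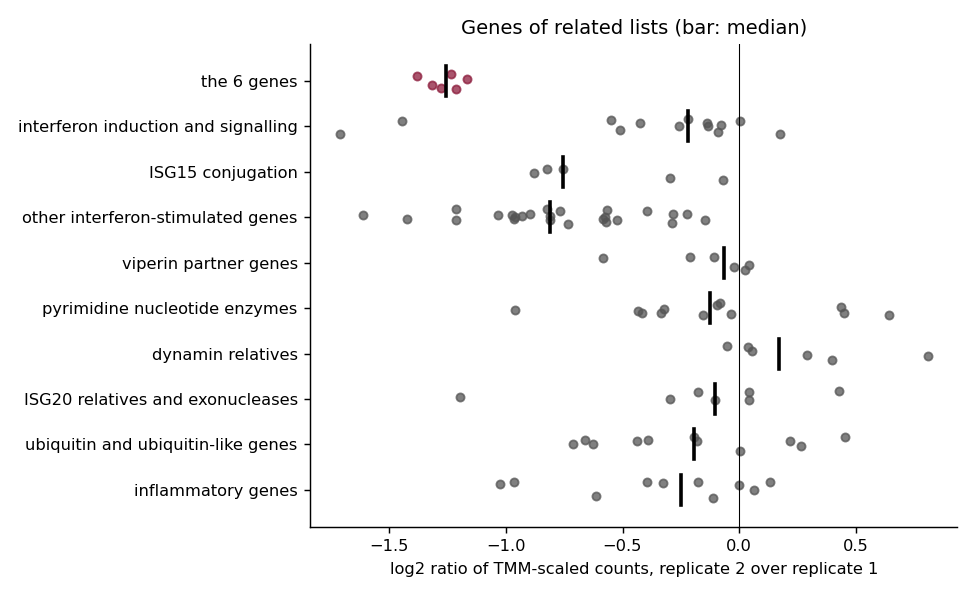
Log2 ratio of TMM-scaled counts, replicate 2 over replicate 1 (horizontal axis), for each tested gene of each list (points) with the list median (black bars). The 6 genes sit from -1.38 to -1.17, the 25 other interferon-stimulated genes all lie below 0 with a median of -0.81, and the medians of the partner, dynamin and exonuclease lists are -0.07, 0.17 and -0.11.

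The neighbours of the members showed how far the high levels extended along the chromosome. No annotated gene overlapped a member. Within 100 kb of Rsad2 and Cmpk2, the other gene that reached 1 TPM in either library was the ubiquitin ligase gene Rnf144a, at 0.46 and 1.12 TPM (log2 ratio 1.00, from 27 and 38 counts). Between Mx1 and Mx2 lies Fam3b, with 2 and 1 counts, below the 3 counts that a count of 0 would allow. Beyond the end of Mx2, on the opposite strand 3781 bases away, the protease gene Tmprss2 stood at 1.52 and 0.80 TPM (-1.39, from 199 and 50 counts). Rsad2 with Cmpk2, and Mx1 with Mx2, were thus pairs of highly abundant genes beside genes near or under 1 TPM.

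Isg15 had 7 neighbours that reached 1 TPM in either library, and Isg20 had 1. AW011738, a protein-coding gene on the opposite strand 2485 bases from the Isg15 start, stood at 4.90 and 2.19 TPM with a log2 ratio of -1.57. On the other side, the gene of the synapse organizer agrin, Agrn, 1935 bases away, stood at 11.4 and 15.8 TPM (-0.05). Farther out were Plekhn1 (44.5 and 44.1 TPM, -0.61), Perm1 (6.57 and 5.90 TPM, -0.59), Noc2l (7.94 and 12.5 TPM, 0.21), Samd11 (1.31 and 1.01 TPM, -0.47) and 9430015G10Rik (1.10 and 1.06 TPM, -0.07). Upstream of Isg20 on the same strand, 2214 bases away, Aen, a gene of an exonuclease of the same family, stood at 14.1 and 20.6 TPM (-0.30). Aen was thus above Isg20 in both libraries.

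Within the genes, the quantifications divided the transcripts differently. Rsad2-201, the coding transcript of 6 exons, took 85.8% of Rsad2 TPM in replicate 1 and 79.1% in replicate 2. Rsad2-202, which carries an additional exon of 435 bases and is annotated as a target of nonsense-mediated decay, took 14.1% and 20.5%. The second quantification gave Rsad2-201 31.3% and 26.6%, Rsad2-202 23.5% and 32.96%, and 45.2% and 40.4% to Rsad2-203, a processed transcript of 430 bases. Rsad2-203 had 1.04 and 1.60 TPM in the first quantification and 438 and 214 TPM in the second. Because it is short, it took only 4.17% and 3.72% of the Rsad2 counts in the second quantification. Of those counts Rsad2-201 took 52.2% and 40.5%, and Rsad2-202 took 43.7% and 55.8%. The share of Rsad2-202 was higher in replicate 2 in both quantifications, while the place of Rsad2-203 depended on the quantification.

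In Cmpk2, most of the TPM went to transcripts annotated as retaining an intron, in both libraries and both quantifications. Their share was 63.8% and 63.5% in the first quantification and 81.6% and 76.7% in the second. Over 5584 protein-coding genes with such a transcript, the median share was 35.2% and 34.3% in the first quantification, and Cmpk2 was at percentiles 88.1 and 86.6. The main one, Cmpk2-204, starts inside the first intron, carries 897 bases outside the exons of the coding Cmpk2-201 and stood at 95.5 and 54.7 TPM. Cmpk2-201 stood at 63.8 and 32.4 TPM. Cmpk2-203, of 330 bases, stood at 18.2 and 1.61 TPM in the first quantification and 175 and 45.5 TPM in the second.

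Isg20 had a retained-intron share of 58.6% and 70.6%, and 50.05% and 57.6% in the second quantification, all from Isg20-205. In the first quantification this was at percentiles 83.1 and 92.0 of genes with such a transcript, and in the second at 66.8 and 74.4. The share rested on 150 and 52.4 estimated counts, and the percentages of counts were 50.1% and 61.7%. Its most abundant coding transcript, Isg20-204, stood at 2.78 and 1.53 TPM. Isg15 has a single annotated transcript, of 2 exons and 756 bases, and thus no composition to divide.

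**Figure D4:**
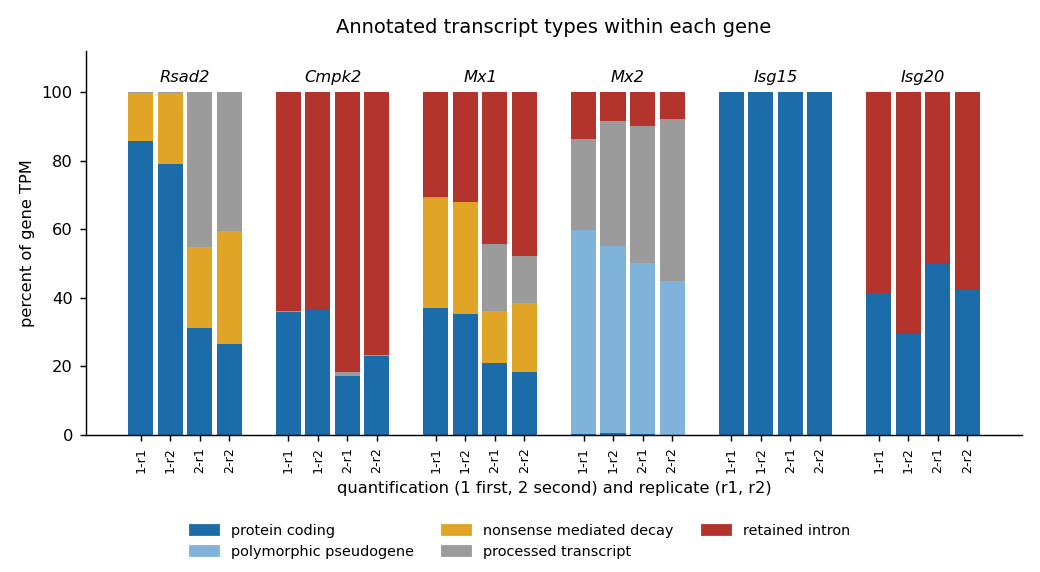
Percent of each gene's TPM given to each annotated transcript type (stacked colors) in each quantification and replicate. Retained-intron transcripts take the larger part of Cmpk2 in all 4 columns (63.5% to 81.6%). By TPM, Rsad2 passes from mostly coding in the first quantification to 45.2% and 40.4% processed transcript in the second. That short transcript holds 4.17% and 3.72% of the Rsad2 counts there.

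The quantifications also disagreed on which coding transcript of Mx1 was the more abundant. The coding Mx1-202, of 9 exons and 1191 coding bases, stood at 133 and 72.4 TPM in the first quantification and 0.95 and 0.38 TPM in the second. The coding Mx1-201, of 15 exons and 1881 coding bases, stood at 2.38 and 0.43 TPM in the first and 127 and 59.8 TPM in the second. Mx1-205, annotated as a target of nonsense-mediated decay, stood at 90.9 and 57.3 TPM in the first and 0.67 and 0.17 TPM in the second. Mx1-203, annotated likewise, went the other way, from 11.5 and 3.58 TPM in the first to 74.6 and 56.3 TPM in the second. All transcripts annotated so took 44.4% and 46.2% of Mx1 counts in the first quantification and 31.9% and 40.8% in the second. Mx1-202 and Mx1-201 each carry 1 of the junctions printed above, and the files give no counts of reads over junctions, so neither assignment could be checked. Transcripts annotated as retaining an intron took 30.6% and 32.0% of Mx1 TPM in the first quantification and 44.4% and 47.9% in the second, but 3.03% and 3.45% of its estimated counts in the first, since they are short.

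In Mx2, both quantifications gave far more to the pseudogene form than to the protein-coding form. Mx2-202, the polymorphic pseudogene transcript, stood at 191 and 108 TPM in the first quantification and 179 and 87.3 TPM in the second. Mx2-201, the protein-coding form that is 1 base shorter at the junction of exons 10 and 11, stood at 0.58 and 1.21 TPM in the first and 0.56 and 0.10 TPM in the second. Among the Mx2 counts, Mx2-201 took 0.27% and 0.95% in the first quantification and Mx2-202 87.8% and 84.9%. The short processed transcript Mx2-203, which starts in an intron with 400 bases of its own, stood at 86.3 and 72.7 TPM in the first quantification and 146 and 92.8 TPM in the second, where it was above Mx2-202 in replicate 2.

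The annotated exons of Mx1-205 and Mx2-202 show what these transcripts of the paralogs share and what Mx1-205 lacks. Exons 3 to 8 of Mx1-205 have the same lengths as exons 3 to 8 of Mx2-202, namely 193, 138, 155, 139, 199 and 79 bases. Their bases were identical at 94.8%, 96.4%, 99.4%, 97.1%, 92.0% and 89.9% of positions. The next Mx1-205 exon, of 77 bases, has the length of exon 12 of Mx2-202 and was identical at 62.3%. Mx2-202 exons 9 to 11, with 425 bases, lie between and have no counterpart in Mx1-205, which has 11 exons against 14. Mx1-201 does carry exons of 54, 64, 138 and 148 bases at that place, which were not compared with those of Mx2-202. The longest run of identical bases in both transcripts was 140. A read wholly inside such a run cannot be told apart, but how many reads lay so was not measured. Mx1 over Mx2 in TPM was 1.13 and 1.04 in the first quantification and 2.13 and 1.69 in the second. The division between the genes is therefore uncertain, and the part of shared bases in it was not tested. Summed over both genes, the first quantification had 39070 counts in replicate 1 and 11075 in replicate 2, and the second had 85045 and 29261. The summed level was 694 and 408 TPM in the first and 1146 and 530 TPM in the second, so the quantifications differed also in the sum.

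**Figure D5:**
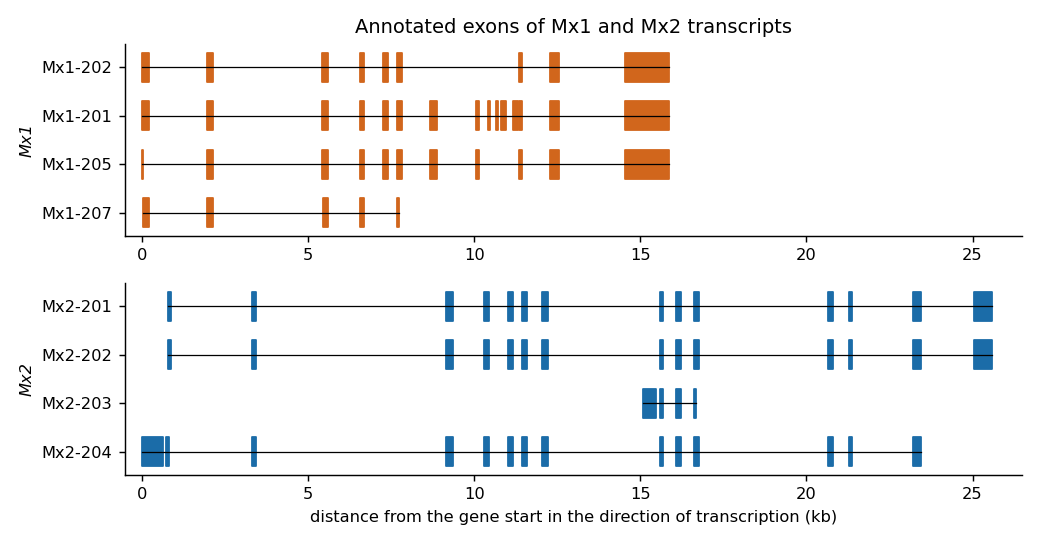
Annotated exons (boxes) of 4 transcripts of Mx1 (upper panel) and of Mx2 (lower panel) against the distance in kb from the gene start in the direction of transcription. Mx1-202 has 9 exons and Mx1-205 has 11, against 14 in Mx2-202, and Mx1-201 has 15, among them the small exons that set it apart.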

How the data were processed

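Each library came with a gene and a transcript table of a first quantification and a transcript table of a second, made by the authors on mm10 with GENCODE M21, per the file headers and accompanying notes. The deposited expected counts are estimated read numbers, rounded here to whole numbers. The deposited TPM and FPKM values are relative abundances over all features, scaled by length. The deposited TPM interval bounds (unit signal) and effective lengths (other) were read, and bounds are not printed. The program behind each table is not given in the sources used here. Transcripts of the second table were summed per gene.

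Ratios used edgeR 4.0.16 in R 4.3.3 with filterByExpr, TMM and a prior count of 2, over 13515 genes, with 95% Clopper-Pearson intervals of the members' counts. The alternative scaling used DESeq2 1.42.0. Other steps used Python 3.11.15 (pandas 2.3.3, scipy 1.17.1, numpy 2.4.6, matplotlib 3.10.9). The steps that give the ratios were also run on simulated counts with known folds, which checks the steps and not these libraries. With 1 group, no p-value is given. A count of 0 allows 3 counts, a CPM of 0.132 in replicate 1 and 0.201 in replicate 2. Intervals and floors cover counting error only.

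The members and lists were chosen with earlier results of these data known. Named genes were the members, the highest, lowest and most shifted genes of each list, nearest genes, leading markers, and neighbours within 100 kb at 1 TPM or more. A few genes that this rule names, and 1 promoter motif, are not reported here. Protein sequences were not used here.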

Additional observations from a re-analysis of the deposited data

How the results depend on the processing

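The log2 ratios of the members stayed negative under every alternative that gave a value, which were DESeq2 size factors, centred TPM or FPKM, TMM over protein-coding genes, no filter, a prior count of 0.5, the second quantification, removal of a length trend and posterior mean counts. They ran from -1.27 to -1.11 for Rsad2, -1.59 to -1.30 for Cmpk2, -1.50 to -1.20 for Mx1, -1.51 to -1.08 for Mx2, -1.39 to -1.19 for Isg15 and -1.41 to -1.06 for Isg20. Mx2 is no protein-coding gene in the annotation, so TMM over protein-coding genes gave values for 5 members, and all 5 were more than 2-fold lower. The list medians that changed sign were those of pyrimidine nucleotide genes (-0.13, and 0.21 with centred TPM), dynamin relatives (0.17, and -0.019 in the second quantification) and exonucleases related to Isg20 (-0.11, and 0.080 with centred TPM), and the cause was not tested. The coefficient of variation was 0.235 without the filter and 0.308 in the second quantification. No paired analysis was possible because the series has 1 group. Depth limits Isg20 most, with 85 counts in replicate 2.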
